A study of Mus musculus with 26 samples.

Results

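The transcripts described here are 33 genes that mark B and T lymphocytes, followed through arteries of mice in which Sphk1, the gene of sphingosine kinase 1, had been removed from smooth muscle cells. The 33 genes were taken by name from a list, out of 55416 gene identifiers in the count tables, and the identifiers of all 33 stand in every table. They comprise 8 genes of the B cell receptor and B cell surface, 2 of antibody secretion, 5 of the T cell receptor complex and its kinases, 6 T cell coreceptors and costimulators, 4 cytotoxic cell genes, 5 genes of homing and lymphoid tissue, and 3 genes shared by most leukocytes. The question put to them is whether the mesenteric libraries with the deletion hold more lymphoid RNA, and how far single libraries carry that difference.

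All groups were C57BL6J mice with both Sphk1 alleles floxed, and the labels give the infused mice as male. The knockout (KO) group, SMC KO-Sphk1 (Sphk1f/f Tagln-cre+), carried Cre recombinase under the Tagln (SM22-alpha) promoter, which is active in smooth muscle, and received angiotensin II (AngII) for 14 days by minipump at 490 ng/kg/min (n = 5). The wild type (WT) groups (Sphk1f/f Tagln-cre-) had the floxed alleles without Cre, and were either given the same AngII infusion (WT AngII, n = 4) or sham-treated (WT sham, n = 4). Infusion began at 12 to 14 weeks of age, and aorta and mesenteric arteries were each sequenced in all 3 groups, giving 26 libraries. No Cre-positive mice without AngII are among the samples analysed here, so the deletion is seen only under AngII.

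B cells recognise antigen through a membrane antibody held by the signalling pair Cd79a and Cd79b, and T cells through a receptor that signals via the Cd3 chains and the kinases Lck and Zap70. Both cell types circulate between blood, lymph and lymphoid tissue, and sphingosine-1-phosphate, the product of sphingosine kinases, is known as the signal that lets them leave lymph nodes. In the mesentery, lymph nodes and small fat-associated lymphoid clusters lie beside the arteries, whereas a healthy aortic wall holds few lymphocytes. In bulk RNA, more lymphocytes and more RNA per lymphocyte cannot be told apart.

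Promoter windows from RefSeq (GRCm38.p6, 250 bases before to 50 after the gene start) were found for 20 of the 33 genes. The windows of 1 B cell gene, 2 T cell genes and 1 lymphoid tissue gene are shown. Their transcripts were highest in the same 4 mesenteric libraries, as were those of 29 of the 33 genes in all. Capitals mark CAGGTG, the E-box core bound by E proteins in lymphocytes, and AGGAAG, a core of ETS factor sites, on either strand. Their matches share no base.
Cd79a, chr7:24897247-24897546 (+): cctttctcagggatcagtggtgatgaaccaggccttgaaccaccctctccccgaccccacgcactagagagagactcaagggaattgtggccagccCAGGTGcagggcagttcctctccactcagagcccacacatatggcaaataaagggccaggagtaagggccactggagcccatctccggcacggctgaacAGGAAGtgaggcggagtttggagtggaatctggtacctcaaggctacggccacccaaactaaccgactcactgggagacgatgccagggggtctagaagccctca
Cd3d, chr9:44981536-44981835 (+): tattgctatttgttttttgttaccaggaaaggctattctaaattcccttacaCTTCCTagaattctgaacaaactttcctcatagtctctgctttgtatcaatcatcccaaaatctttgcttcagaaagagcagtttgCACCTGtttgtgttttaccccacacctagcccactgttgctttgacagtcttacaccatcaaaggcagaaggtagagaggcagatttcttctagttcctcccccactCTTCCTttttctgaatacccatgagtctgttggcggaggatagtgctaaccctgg
Cd3e, chr9:45009562-45009861 (-): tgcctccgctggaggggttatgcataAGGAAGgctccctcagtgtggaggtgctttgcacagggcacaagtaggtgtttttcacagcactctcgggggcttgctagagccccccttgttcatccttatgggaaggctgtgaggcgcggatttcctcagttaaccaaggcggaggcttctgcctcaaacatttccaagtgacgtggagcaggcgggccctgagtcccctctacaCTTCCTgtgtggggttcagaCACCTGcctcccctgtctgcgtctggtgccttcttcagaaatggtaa
Ltb, chr17:35194257-35194556 (+): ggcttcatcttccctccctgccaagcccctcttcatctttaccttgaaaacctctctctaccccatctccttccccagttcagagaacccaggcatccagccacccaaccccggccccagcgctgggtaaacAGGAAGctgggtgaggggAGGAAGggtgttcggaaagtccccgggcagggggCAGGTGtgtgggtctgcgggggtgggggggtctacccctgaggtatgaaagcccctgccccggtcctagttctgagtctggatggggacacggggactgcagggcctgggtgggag

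CAGGTG stood in the window of 12 of the 20 genes and AGGAAG in that of 13. The windows printed above each hold both motifs, which not all of the 20 genes do. Over windows, CAGGTG was in 14 of the 25 member windows (56.0%), against 20.2% of all 32851 windows in the table. AGGAAG was in 16 of the 25 (64.0%), against 35.4% of all windows. Both motifs were chosen after several had been looked at, and a match is a description of the letters, not of binding.

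The samples behind the values are as follows. Counts assigned to genes came to 17540532 to 30050073 per mesenteric library and 23487946 to 32251097 per aortic library. Sphk1 had 2.81 to 4.62 normalised CPM (counts per 1e6 counts, with library sizes scaled by TMM) in mesenteric KO libraries, against 9.50 to 17.2 in WT AngII libraries, and 1.78 to 3.42 in aortic KO libraries, against 12.1 to 25.2 in WT AngII libraries, without overlap in either tissue; the count covers the whole gene, not the floxed segment alone. The smooth muscle actin gene Acta2 had 7097 to 13860 CPM in mesenteric KO libraries and 9713 to 14200 in WT AngII libraries. WT sham libraries had 11000 to 13000 CPM, so smooth muscle RNA was present in each mesenteric library. In 4 mesenteric libraries more than 10% of records were not aligned (KO replicates 2, 3 and 4 and WT AngII replicate 1, at 11.43 to 14.7%), against 0.5717 to 2.52% elsewhere. Exocrine pancreas genes were high in mesenteric KO replicates 2 and 5, WT AngII replicate 4 and WT sham replicates 1, 2 and 4, with list sums of 9431 to 72430 CPM. Gut epithelium genes summed to 42.07 to 303.2 CPM in mesenteric KO libraries and 20.69 to 463.5 CPM in WT AngII libraries. In WT sham libraries they summed to 25.34 to 45.73 CPM. The part of pancreas or gut tissue in the result was not tested.

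In the mesenteric arteries, lymphocyte RNA stood high in 4 of 13 libraries: KO replicates 1, 3 and 5 and WT AngII replicate 1. The 33 genes summed to 1178, 274.7, 2913, 91.65 and 428.4 CPM in KO replicates 1 to 5, against 795.9, 118.7, 74.81 and 113.5 CPM in WT AngII replicates 1 to 4. In WT sham replicates 1 to 4 the sums were 242.5, 100.8, 110.7 and 142.1 CPM. The groups overlapped throughout: by these sums KO replicate 4 lay below every WT sham library, and WT AngII replicate 1 lay above 3 of the 5 KO libraries. Ighm and Jchain, with means of 332.3 and 194.6 CPM in KO libraries, weighed most in the sums. Gene by gene, KO replicate 1 was below WT AngII replicate 1 for 26 of the 33 genes, although its sum was higher.

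**Figure D1:**
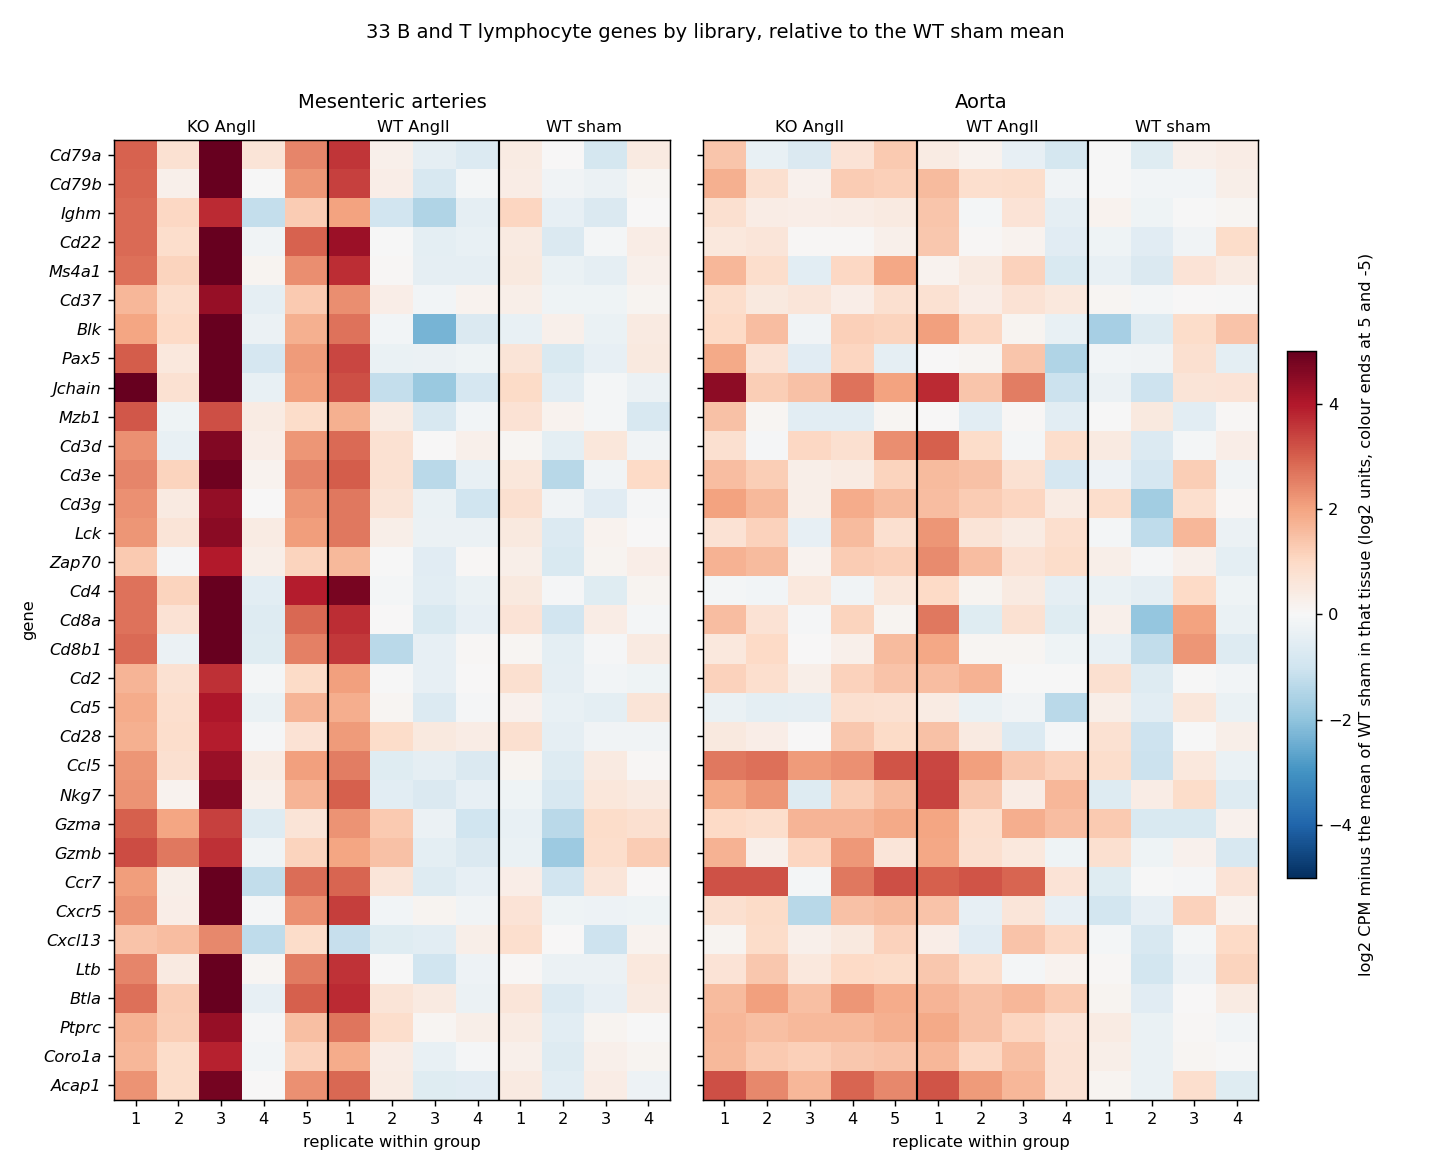
Each row is 1 of the 33 lymphocyte genes and each column 1 library, with groups in the order KO AngII, WT AngII and WT sham in the mesenteric arteries (left) and the aorta (right); colour gives log2 CPM (prior count 2) minus the WT sham mean of that tissue, and ends at 5 and -5. In the mesenteric arteries, KO replicate 3 is the reddest column, KO replicates 1 and 5 and WT AngII replicate 1 are red for most genes, and the other libraries are pale.

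No gene of the 33 passed the test between KO and WT AngII mesenteric arteries. Of the 32 that had enough reads to be tested, 0 were called at an edgeR adjusted p below 0.05, where the whole table gave 0.0% of 17513 genes higher in KO and 0.00571% lower. All 32 fold changes were above 0 on the log2 scale (1.12 to 2.63, median 1.76, against a median of 0.02 over all genes), with adjusted p of 0.798 to 0.827. At an unadjusted p below 0.05 there were 2, Cd5 and Cxcl13, and the count of called genes was also 0 with DESeq2 (9 at an unadjusted p below 0.05) and with limma voom (13). For none of the 32 did the KO libraries lie wholly above the WT AngII libraries, where 0.577% of all genes did, and for none did they lie wholly below, where 1.13% of all genes did. Genes that share cells move together, so neither the common sign nor the unadjusted counts rest on 32 separate observations.

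The B cell receptor genes showed the pattern in full. Cd79a, a signalling chain of the B cell receptor, had 12.6, 2.67, 91.0, 2.48 and 8.75 CPM in KO replicates 1 to 5. It had 19.4, 1.89, 1.12 and 0.946 CPM in WT AngII replicates 1 to 4, against 2.13, 1.58, 0.813 and 2.14 CPM in WT sham replicates 1 to 4. Every KO library was thus above every WT sham library for Cd79a, while WT AngII replicate 1 exceeded all KO libraries but replicate 3. Of the 32 tested genes, Cd79a alone was separated from WT sham in this way, where 3.11% of all genes lay wholly higher in KO. The log2 fold change of KO over WT AngII was 2.06 ± 1.2 (SE, 95% interval -0.54 to 4.65, edgeR adjusted p = 0.798).

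Ighm, the constant gene of IgM, the first antibody class a B cell makes, had 471.5, 133.4, 868.6, 29.1 and 159.0 CPM in KO replicates 1 to 5, against 265.5, 34.03, 23.01 and 48.6 CPM in WT AngII replicates 1 to 4. WT sham libraries had 140.4, 50.1, 40.1 and 66.4 CPM. WT sham replicate 1 thus lay between KO replicates 2 and 5. Ms4a1, which encodes the B cell surface protein CD20, had 11.4, 3.61, 84.7, 1.80 and 8.45 CPM in KO libraries, against 21.7, 1.69, 1.16 and 1.16 CPM in WT AngII libraries.

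Cd22, an inhibitory coreceptor of B cells, was the gene most concentrated in a single KO library. It had 11.2, 2.85, 126.9, 1.32 and 12.0 CPM in KO replicates 1 to 5, against 30.7, 1.49, 1.04 and 1.16 CPM in WT AngII replicates 1 to 4, and replicate 3 held 82.2% of the KO total. For Cd79b, the partner of Cd79a, Blk, a kinase of the B cell receptor, Pax5, the B cell identity factor, and the tetraspanin Cd37, the log2 fold changes of KO over WT AngII were 1.51 to 2.15. The order of libraries was the same at the top for all of them: KO replicate 3 first and WT AngII replicate 1 next.

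Antibody secretion was the one role in which KO replicate 1 matched KO replicate 3. Jchain, which joins IgA and IgM into polymers and is made by antibody-secreting cells, had 447.9, 20.3, 445.5, 9.26 and 49.9 CPM in KO replicates 1 to 5. WT AngII replicates 1 to 4 had 112.9, 5.19, 3.20 and 6.66 CPM, and WT sham replicates 1 to 4 had 23.04, 8.14, 10.98 and 9.77 CPM. Jchain per Cd79a was 35.6 in KO replicate 1, against 4.90 in KO replicate 3, 5.70 in KO replicate 5 and 5.82 in WT AngII replicate 1. Jchain also had the largest fold change of the 32, a log2 value of 2.63 ± 1.34 (SE, edgeR adjusted p = 0.798).

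Mzb1, an antibody-assembly factor of the endoplasmic reticulum, had too few reads to be tested, with 0 to 1.15 CPM. In the GENCODE M21 annotation of GRCm38 it shares 57.2% of its exon bases with another gene on the same strand, so its count is uncertain. The immunoglobulin constant genes, outside the 33, followed Jchain: 11 genes summed to 2699 CPM in KO replicate 1 and 2718 in KO replicate 3, against 638 in WT AngII replicate 1 and 22.59 to 84.71 in WT sham libraries. Igha, the constant gene of IgA, stood at 1381 CPM in KO replicate 1 and 1105 in KO replicate 3, against 176.5 in WT AngII replicate 1. None of these 11 genes was called in KO against WT AngII (median log2 fold change 2.54, edgeR adjusted p 0.798 to 0.964, 2 at an unadjusted p below 0.05).

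T cell genes followed the same libraries. Cd3e, a signalling chain of the T cell receptor complex, had 2.56, 0.975, 14.2, 0.482 and 2.64 CPM in KO replicates 1 to 5, against 3.90, 0.761, 0.116 and 0.301 CPM in WT AngII replicates 1 to 4. The lowest of these values rests on 3 reads. KO replicates 1, 3 and 5 and WT AngII replicate 1 were again above all the other libraries, WT sham included. The 5 genes of the receptor complex and its kinases (Cd3d, Cd3e, Cd3g, Lck and Zap70) had log2 fold changes of 1.49 to 1.76 for KO over WT AngII, with 0 called.

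Among coreceptors, Cd4, which marks helper T cells and is also made by some myeloid cells, had 7.98, 2.56, 79.1, 0.772 and 18.5 CPM in KO replicates 1 to 5. WT AngII replicates 1 to 4 had 32.5, 1.06, 0.772 and 0.903 CPM, of which replicate 1 held 92.2% of the group total. No other gene of the 33 was so concentrated in that library. Cd8a and Cd8b1, the chains of the killer T cell coreceptor, had log2 fold changes of 1.75 and 1.53 for KO over WT AngII. Cd28, the costimulatory receptor, had the smallest, 1.12 ± 0.79 (SE, edgeR adjusted p = 0.798), and with medians in place of means its KO level was only 1.14 times that of WT AngII.

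Cd5, a negative regulator of T cell receptor signals, was 1 of the 2 genes at an unadjusted p below 0.05. It had 2.19, 1.05, 10.3, 0.418 and 1.97 CPM in KO replicates 1 to 5, against 2.14, 0.595, 0.309 and 0.516 CPM in WT AngII replicates 1 to 4. WT AngII replicate 1 lay within the KO range. Its log2 fold change was 1.88 ± 0.86 (SE, 95% interval 0.01 to 3.75, edgeR adjusted p = 0.798).

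Of the cytotoxic genes, both granzymes leaned less on KO replicate 3 than most of the 33. Gzma, a granzyme of killer T cells and natural killer cells, had 5.17, 2.56, 7.03, 0.354 and 0.963 CPM in KO replicates 1 to 5, against 3.10, 1.56, 0.463 and 0.258 CPM in WT AngII replicates 1 to 4. For Gzma and Gzmb, KO replicate 3 held 43.7% and 41.2% of the KO total, against a median of 69.4% over the 33 genes. Ccl5, a chemokine of activated T cells, and Nkg7, a cytotoxic granule gene, had log2 fold changes of 1.75 and 1.57 for KO over WT AngII. Of 12 further natural killer and cytotoxic genes, 9 were tested and 0 called, with a median of 1.89.

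Cxcl13, the chemokine that draws Cxcr5-bearing B cells into follicles and is made by stromal cells, departed from the others. It had 10, 10.9, 20.02, 1.48 and 6.99 CPM in KO replicates 1 to 5, against 1.60, 2.38, 2.55 and 4.56 CPM in WT AngII replicates 1 to 4. WT AngII replicate 1, high for the other 32 genes, had the lowest Cxcl13 of its group, and KO replicate 2 ranked second of all 13. WT sham libraries had 6.75, 3.70, 1.76 and 4.21 CPM, within the KO range. The log2 fold change of KO over WT AngII was 1.85 ± 0.61 (SE, 95% interval 0.52 to 3.17, edgeR adjusted p = 0.798).

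The receptor Cxcr5 itself followed the B cell genes, with 2.40, 0.578, 21.8, 0.418 and 2.47 CPM in KO replicates 1 to 5, against 5.56, 0.397, 0.502 and 0.387 CPM in WT AngII replicates 1 to 4. Ccr7, the receptor that guides naive T cells and dendritic cells into lymph nodes, had 3.31, 0.903, 30.9, 0.257 and 5.36 CPM in KO libraries, against 5.88, 1.13, 0.425 and 0.516 CPM in WT AngII libraries. For Ltb, a lymphotoxin subunit that organises lymphoid tissue, and Btla, an inhibitory receptor of lymphocytes, the log2 fold changes were 1.79 and 2.16. KO replicate 3 held 80.7% of the KO total of Btla.

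Of the genes shared by leukocytes, Ptprc, which encodes CD45, had 45.7, 32.4, 281.3, 13.1 and 38.6 CPM in KO replicates 1 to 5, against 87.6, 25.4, 14.8 and 16.9 CPM in WT AngII replicates 1 to 4. KO replicate 3 and WT AngII replicate 1 stood highest here too, and its log2 fold change was 1.22 ± 0.83 (SE, edgeR adjusted p = 0.798). Coro1a, an actin regulator of leukocytes, and Acap1, a membrane traffic protein abundant in lymphocytes, had log2 fold changes of 1.48 and 1.74.

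**Figure D2:**
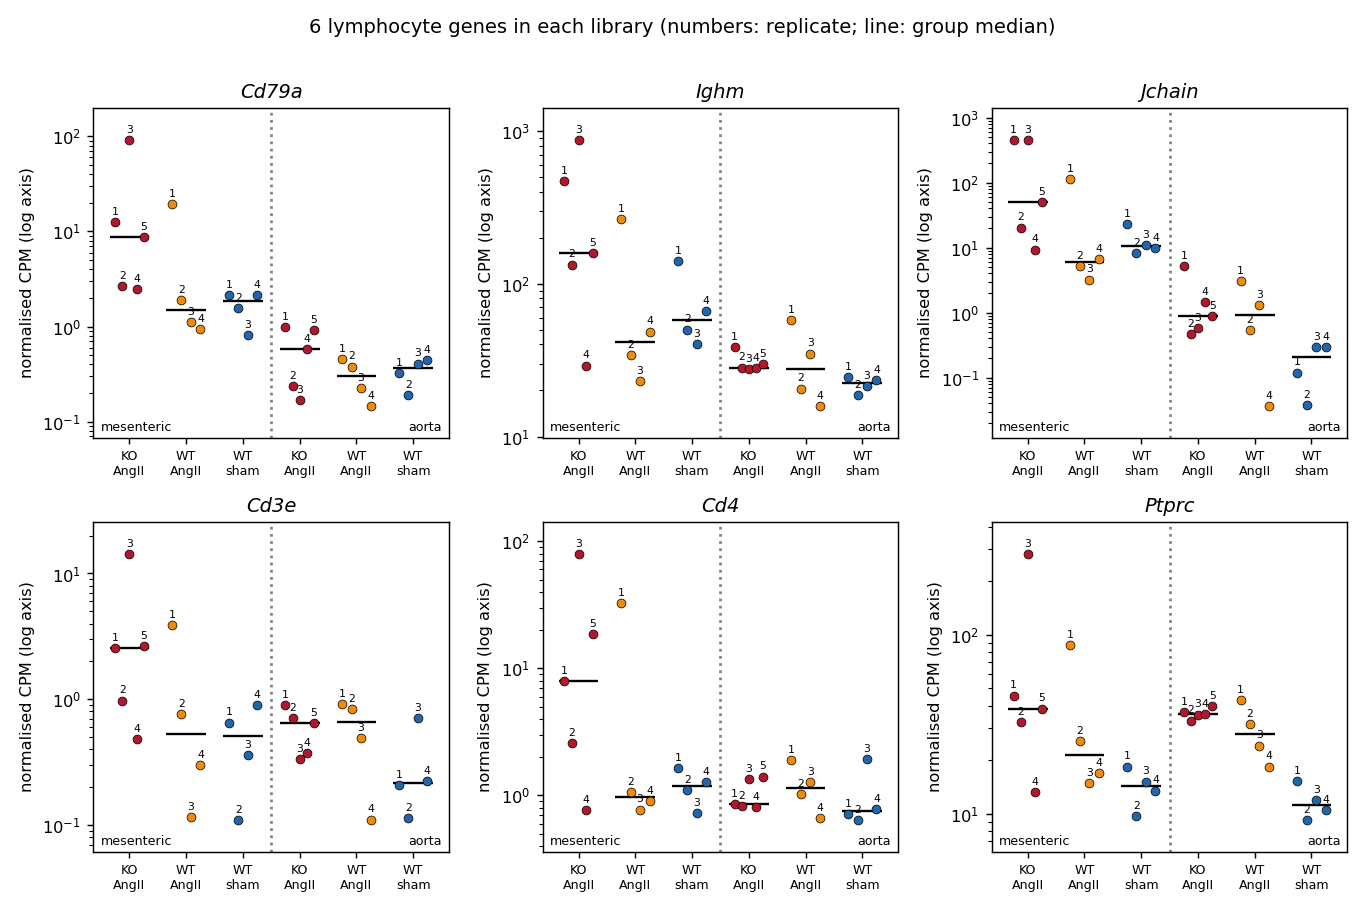
Normalised CPM (log axis) of Cd79a, Ighm, Jchain, Cd3e, Cd4 and Ptprc in each of the 26 libraries; points are libraries numbered by replicate, horizontal lines are group medians, and the 3 groups of the mesenteric arteries stand left of those of the aorta. Mesenteric KO replicate 3 is the highest point for 5 of these 6 genes (Jchain is the exception, at 445.5 CPM against 447.9 CPM in KO replicate 1), and WT AngII replicate 1 stands above the rest of its group in each mesenteric panel.

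How far single libraries carried the difference can be given gene by gene. KO replicate 3 was the highest of the 13 mesenteric libraries for 32 genes and KO replicate 1 for the remaining 1, Jchain. WT AngII replicate 1 ranked second for 26. For 29 genes the 4 highest libraries were KO replicates 1, 3 and 5 and WT AngII replicate 1, in some order. KO replicate 3 held 40.5 to 82.2% of the KO total (median 69.4%), and WT AngII replicate 1 held 14.5 to 92.2% of the WT AngII total (median 74.0%).

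Set against the WT sham mean of each gene, the median ratio over the 33 genes was 5.16, 1.71, 27.3, 0.88 and 4.2 in KO replicates 1 to 5, against 7.21, 1.03, 0.651 and 0.736 in WT AngII replicates 1 to 4. KO replicates 1 and 3 were above all 4 WT sham libraries for 33 of the 33 genes, and KO replicate 5 for 30. KO replicate 2 was so for 19 and KO replicate 4 for 1. Of the WT AngII libraries, replicate 1 was above all WT sham libraries for 32 genes, replicate 2 for 8 and replicates 3 and 4 for 0.

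The comparison changed greatly when either of these libraries was left out. Without KO replicate 3 the median log2 fold change of KO over WT AngII was 0.19, with 25 of 32 values above 0 and 0 called. Without WT AngII replicate 1 it was 3.40, with 29 genes at an unadjusted edgeR p below 0.05 and 0 called. Without both it was 1.92, with 25 at an unadjusted p below 0.05 and 0 called. Both libraries stood highest in their groups for most of these genes, and were chosen with earlier results known. Leaving out the highest library of a group narrows its spread, so the unadjusted counts in these fits are not support for a difference. Their share over all genes is not given.

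Single genes differed in how much they depended on these libraries. The log2 fold change of Cd79a was 0.19 without KO replicate 3 and 4.18 without WT AngII replicate 1, and that of Cd22 was -0.32 and 4.68. Jchain kept a value of 2.06 without KO replicate 3, and Cxcl13 kept 1.40. For Cxcl13 the value without WT AngII replicate 1 was 1.67, close to 1.85 with all libraries.

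**Figure D3:**
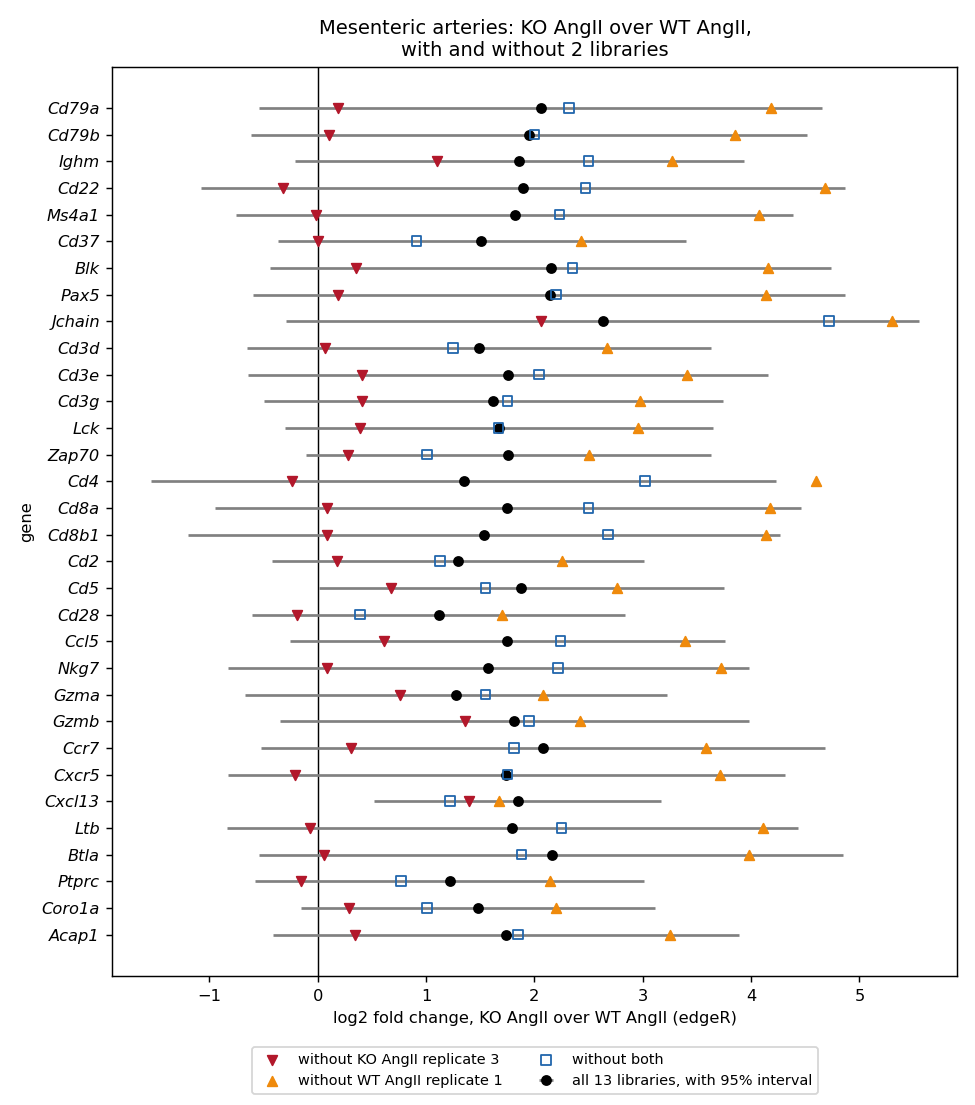
Log2 fold change of KO AngII over WT AngII in the mesenteric arteries for the 32 tested genes; black points with 95% intervals use all 13 libraries, red triangles leave out KO replicate 3, orange triangles WT AngII replicate 1, and open squares both. The red triangles gather near 0 (median 0.19) and the orange ones lie right of the black points for 31 of the 32 genes (median 3.40; Cxcl13 is the exception), while Jchain, Cxcl13, Gzmb and Ighm stay above 1 without KO replicate 3.

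Libraries with more than 10% of records not aligned stood both high and low in lymphocyte RNA. Among the 4 libraries above 10%, KO replicate 3 was above WT AngII replicate 1 for all 33 genes, whereas KO replicate 2 was below it for 31 and KO replicate 4 for 33. Among the rest, KO replicate 1 was above WT AngII replicates 2 to 4 for 33 genes and KO replicate 5 for 30. A fit without the 4 libraries, which leaves 2 KO and 3 WT AngII libraries, gave a median log2 fold change of 2.63 and called 15 of 32 genes higher in KO, where 0.313% of all genes were, Cd4 (3.85, edgeR adjusted p = 0.013) and Cd22 (3.23, adjusted p = 0.013) foremost. That fit kept KO replicates 1 and 5, in which lymphocyte RNA was high. It left out KO replicates 2 and 4, with the lowest sums of their group, and WT AngII replicate 1, the highest of its group. The calls can therefore not be told apart from the choice of libraries. The part of the share not aligned in the result was not tested.

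Against WT sham, KO mesenteric arteries gave larger values that still missed the threshold. All 32 log2 fold changes were above 0 (1.28 to 4.31, median 3.03), 31 at an unadjusted edgeR p below 0.05, and 0 were called (adjusted p 0.155 to 0.266), where 0.457% of all genes were called higher and 0.251% lower. The 31 genes are not separate observations, and the share of all genes at that unadjusted level is not given. DESeq2 called 25 of the 32 higher, where it called 5.13% of all genes higher, and limma voom called 0. The groups did not overlap for 1 gene, Cd79a, where 3.11% of all genes lay wholly higher in KO and 3.7% wholly lower. Without KO replicate 3 the median was 1.63, still with 0 called, and without the 4 poorly aligned libraries 19 genes were called higher, where 1.51% of all genes were.

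The largest of these values belonged to Cd22, Btla and Cd4. Cd22 had a log2 fold change of 4.31 ± 1.56, Btla 4.21 ± 1.39 and Cd4 4.21 ± 1.55 for KO over WT sham (SE). Their edgeR adjusted p values were 0.174, 0.155 and 0.175. Cxcl13 had the smallest, 1.28 ± 0.59 (SE, adjusted p = 0.266).

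Between WT AngII and WT sham mesenteric arteries no gene of the 33 was called. For WT AngII over WT sham, 31 of 32 log2 fold changes were above 0 (median 1.29) and 0 were called by edgeR (lowest adjusted p = 0.522, 0 at an unadjusted p below 0.05), where 0.183% of all genes were called higher. DESeq2 also called 0, with 1 at an unadjusted p below 0.05. The groups overlapped for all 32 genes, while 4.68% of all genes lay wholly higher in WT AngII and 4.12% wholly lower. Without WT AngII replicate 1 the median was -0.27, with 7 of 32 values above 0. Cxcl13 was the 1 gene below 0 with all libraries, at -0.57 ± 0.62 (SE, adjusted p = 0.769).

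Genes of lymph node vessels were read beside the lymphocyte genes. Glycam1, a mucin of high endothelial venules, the vessels by which lymphocytes enter lymph nodes, had 342, 2, 1031, 0 and 94 reads in mesenteric KO replicates 1 to 5. WT AngII replicates 1 to 4 had 218, 0, 1 and 1 reads, and all 4 WT sham libraries had 0. Madcam1, an adhesion molecule of the same vessels and of gut vessels, had 212, 10, 510, 17 and 121 reads in KO replicates 1 to 5, against 55, 10, 7 and 6 reads in WT AngII replicates 1 to 4 and 1 to 11 in WT sham libraries. Both genes were thus highest in the 4 libraries in which the lymphocyte genes were highest.

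Summed over the whole list of lymph node stroma and vessel genes, with Glycam1 and Madcam1 among them, the libraries differed less. Its 12 genes summed to 168.9 to 509.7 CPM in KO libraries, 229.3 to 278.5 in WT AngII libraries and 179.3 to 325.0 in WT sham libraries, and 0 of 11 tested were called in KO against WT AngII. Their mean log2 CPM, which weighs the genes alike, was 1.454 to 4.196 in KO libraries, 0.903 to 2.792 in WT AngII libraries and 0.748 to 1.701 in WT sham libraries. Ccl21a, the Ccr7 ligand made by lymph node stroma and lymphatic vessels, had 127.9, 172.9, 241.0, 47.4 and 93.8 CPM in KO replicates 1 to 5, against 100.4, 118.7, 82.7 and 89.4 CPM in WT AngII replicates 1 to 4. Its order did not follow that of the lymphocyte genes, with WT sham replicate 1 at 156.9 CPM. Between 0 and 2 genes of the list had no reads in a mesenteric library. The part of lymph node tissue in the result was not tested.

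Companion lists gave the breadth of the pattern in mesenteric arteries. Of 22 further B cell genes, 20 of 21 tested had KO over WT AngII values above 0 (median 1.56), and of 22 further T cell genes 20 of 20 (median 1.39), with 0 called in both (2 and 0 at an unadjusted edgeR p below 0.05). Macrophage and monocyte genes summed to 510.7, 841.5, 2244, 329.2 and 586.5 CPM in KO replicates 1 to 5, against 803.2, 522.1, 314.4 and 430.5 CPM in WT AngII replicates 1 to 4, with a median log2 fold change of 0.83 and 0 of 12 called (1 at an unadjusted edgeR p below 0.05). Dendritic cell genes summed to 68.09, 57.95, 368.0, 44.6 and 84.16 CPM in KO replicates 1 to 5, against 127.7, 48.75, 55.63 and 44.33 CPM in WT AngII replicates 1 to 4 and 50.42 to 64.16 CPM in WT sham libraries. The 4 highest of these sums were in the 4 libraries with the most lymphocyte RNA, and 0 of 10 genes were called in KO against WT AngII (median log2 fold change 1.38, 2 at an unadjusted edgeR p below 0.05). Clec9a, a receptor of cross-presenting dendritic cells, had 80.8 CPM in KO replicate 3, against 22.4 CPM in WT AngII replicate 1 and 0.44 to 0.96 CPM in WT sham libraries, and Siglech, a marker of plasmacytoid dendritic cells, had 70.6 CPM, against 32.02 and 1.32 to 2.74 CPM. The part of dendritic cells in the result was not tested. Smooth muscle genes summed to 20910 CPM in KO replicate 3, the lowest of the 13, and to 28630 to 42590 CPM elsewhere. Among genes that handle sphingosine-1-phosphate, 1 of 8 tested was called in KO against WT AngII, Sphk1 itself.

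B and T cell genes did not keep one ratio across the libraries. The ratio set the sum of Cd79a, Cd79b, Ms4a1, Cd22, Blk and Pax5 over that of Cd3d, Cd3e, Cd3g, Lck and Zap70. Among the 4 libraries with the most lymphocyte RNA, it stood at 3.99, 6.01 and 3.15 in KO replicates 1, 3 and 5, against 5.14 in WT AngII replicate 1. The other 9 mesenteric libraries had 1.80 to 3.57. Cd4 per Cd8a was 1.71, 2.42 and 3.54 in KO replicates 1, 3 and 5, against 3.49 in WT AngII replicate 1. Igha per Ighd, switched over naive B cell antibody genes, was 65.9 in KO replicate 1, against 6.26 in KO replicate 3, 4.92 in KO replicate 5 and 4.73 in WT AngII replicate 1.

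**Figure D4:**
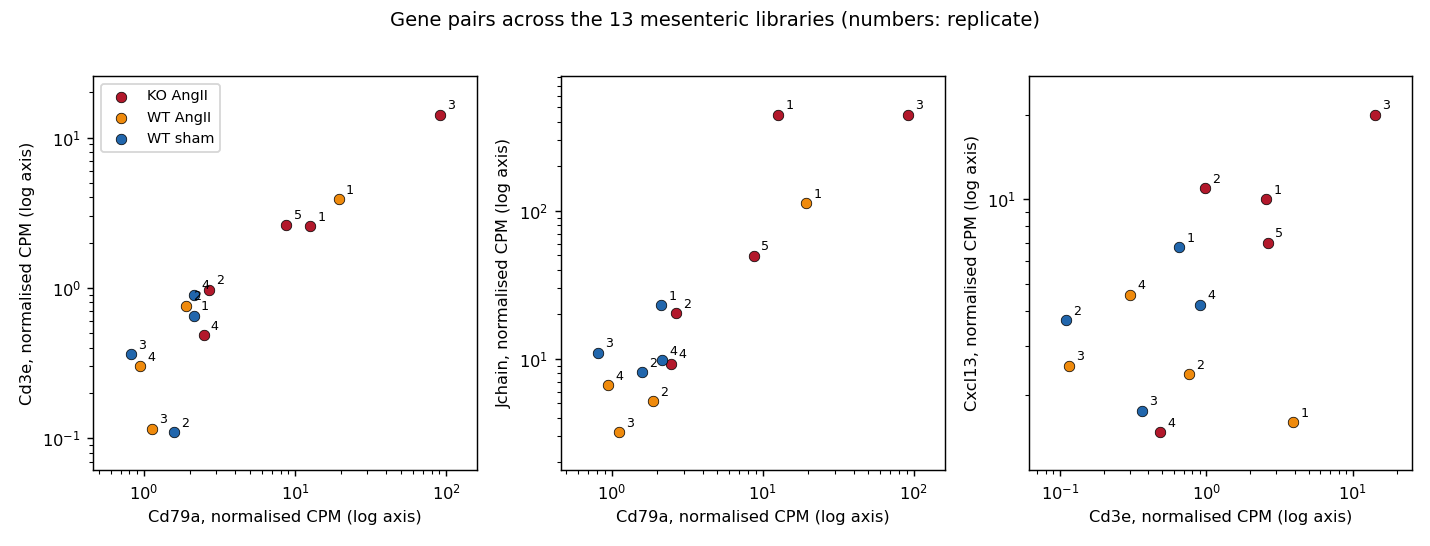
Cd3e against Cd79a (left), Jchain against Cd79a (middle) and Cxcl13 against Cd3e (right) in normalised CPM on log axes; each point is 1 of the 13 mesenteric libraries, numbered by replicate and coloured by group. Cd79a and Cd3e place KO replicates 1, 3 and 5 and WT AngII replicate 1 apart from the rest, KO replicate 1 has 447.9 CPM of Jchain at 12.6 CPM of Cd79a, and WT AngII replicate 1 has 1.60 CPM of Cxcl13 at 3.90 CPM of Cd3e.

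In the aorta the libraries of a group stood closer together, where the common edgeR dispersion over all genes was 0.1266 in the mesenteric arteries, against 0.02858 in the aorta. The 33 genes together came to 101.9 to 137.8 CPM in KO libraries, 64.02 to 168.0 in WT AngII libraries and 43.05 to 63.25 in WT sham libraries. Both AngII groups thus stood above WT sham, WT AngII only narrowly at its lowest library. Much of the sum came from the 3 genes shared by most leukocytes, so it does not stand for lymphocytes alone. Those 3 had mean sums of 62.13, 52.88 and 21.23 CPM in KO, WT AngII and WT sham, against 116.8, 107.5 and 55.42 CPM for all 33. Of the 33 genes, 26 had enough reads to be tested, and 12 had no reads in at least 1 aortic library.

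Between KO and WT AngII aortas no gene of the 33 was called. For KO over WT AngII 0 of 26 genes were called (edgeR adjusted p 0.981 to 0.999, 0 at an unadjusted p below 0.05), where 0.0% of all 16863 genes were called higher and 0.00593% lower. DESeq2 and limma voom also called 0. The values lay on both sides of 0, 17 above and 9 below, from -0.47 to 0.93 with a median of 0.17. For Ptprc the log2 difference was 0.31 ± 0.21 (SE), with a 95% interval of -0.14 to 0.75. The 2 groups overlapped for all 26 genes, while 0.492% of all genes lay wholly higher in KO and 0.457% wholly lower.

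Against WT sham, AngII raised 8 of the 26 genes in WT aorta, where 14.7% of all genes rose, and 0 fell, where 10.8% of all genes did. In KO aorta 10 rose, where 16.6% of all genes rose, and 0 fell, where 14.2% of all genes did. Both shares of the 26 are read against a background in which many genes moved. The same 8 genes were among those 10: Cd37, Zap70, Ccl5, Ccr7, Btla, Ptprc, Coro1a and Acap1, with Cd79b and Jchain in KO aorta besides. Both comparisons share the WT sham libraries. When 1 aortic library at a time was left out, the calls of Jchain, Cd79b and Zap70 in KO over WT sham were each lost at least once, with edgeR adjusted p of up to 0.112, 0.0774 and 0.101, and that of Zap70 in WT AngII over WT sham, with up to 0.0609. Without KO replicate 1, both Jchain and Cd79b were lost. The B cell markers Cd79a, Ms4a1, Cd22 and Blk and the T cell markers Cd3e, Cd4 and Cd8a were not called in either comparison.

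Ptprc had 37.0, 33.1, 35.7, 35.8 and 39.7 CPM in KO aortas and 43.2, 31.5, 23.95 and 18.3 CPM in WT AngII aortas, against 15.1, 9.22, 11.9 and 10.47 CPM in WT sham aortas. Neither AngII group overlapped WT sham. The log2 fold change was 1.61 ± 0.22 for KO over WT sham (SE, edgeR adjusted p = 0.000138) and 1.31 ± 0.22 for WT AngII over WT sham (SE, adjusted p = 0.00102). In KO, 8 of 26 genes lay wholly above WT sham (17.8% of all genes did, and 14.5% lay wholly below), and in WT AngII 6 of 26 (13% of all genes, with 10.9% wholly below).

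Ccr7 gave the largest fold changes, from very few reads. It had 0.988, 0.981, 0.0336, 0.644 and 1.00 CPM in KO aortas and 0.845, 0.950, 0.789 and 0.110 CPM in WT AngII aortas, against 0, 0.0378, 0.0371 and 0.112 CPM in WT sham aortas, where the count was 0 to 3 reads. KO replicate 3 and WT AngII replicate 4 lay within the WT sham range. The fitted log2 fold changes were 3.88 ± 0.93 and 3.78 ± 0.96 (SE, edgeR adjusted p = 0.00581 and 0.01). At such counts they depend on the default prior count of the edgeR fit.

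Jchain, called in KO over WT sham but not in WT AngII over WT sham, had 5.21, 0.471, 0.571, 1.46 and 0.883 CPM in KO aortas and 3.06, 0.532, 1.31 and 0.0368 CPM in WT AngII aortas, against 0.119, 0.0378, 0.297 and 0.298 CPM in WT sham aortas. Its fold change of KO over WT AngII was not called (log2 0.44 ± 0.87, SE, edgeR adjusted p = 0.986). Btla had 1.18 to 2.00 CPM in KO aortas and 1.03 to 1.37 CPM in WT AngII aortas, against 0.227 to 0.522 CPM in WT sham aortas. Acap1 rose by a log2 value of 2.79 ± 0.55 in KO aortas over WT sham (SE, edgeR adjusted p = 0.00155).

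**Figure D5:**
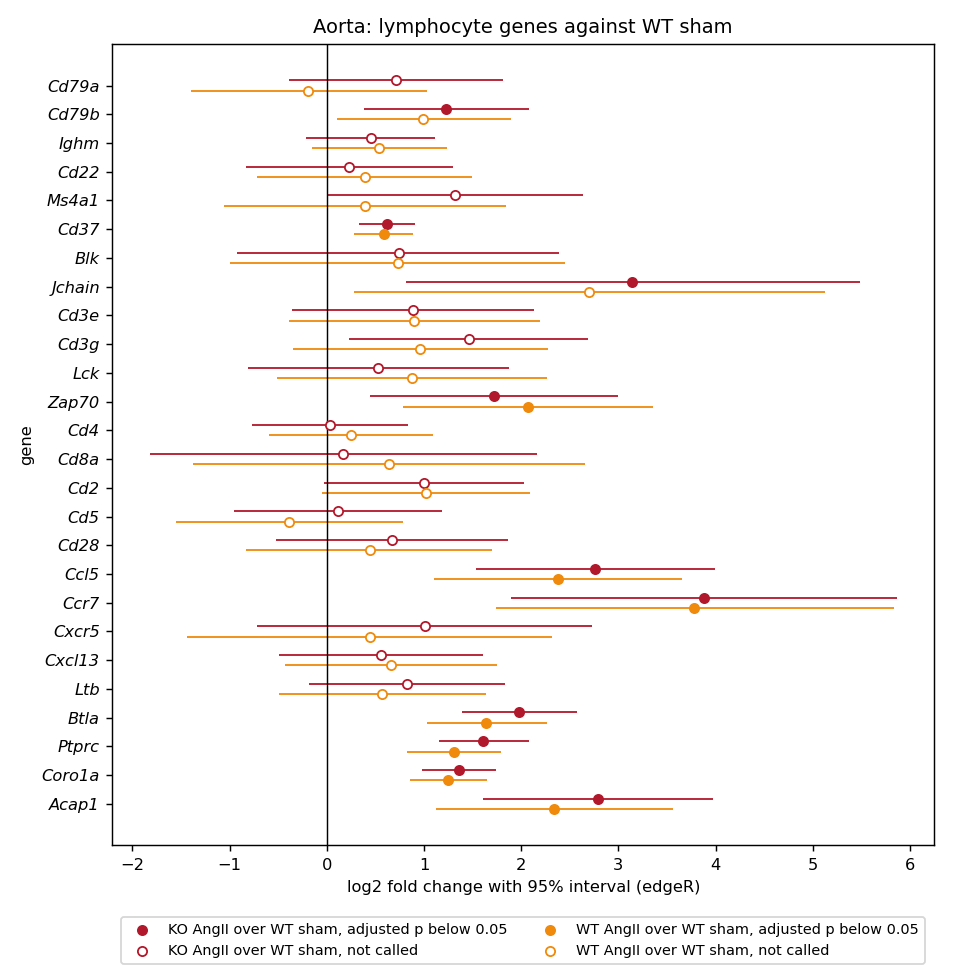
Log2 fold changes with 95% intervals over WT sham in the aorta for the 26 tested genes; red is KO AngII, orange WT AngII, and filled points passed an edgeR adjusted p of 0.05. The 2 colours lie close together for most genes, and the narrow intervals belong to Ptprc, Coro1a, Btla and Cd37.

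Markers of other cells in the aorta moved with these genes. Macrophage and monocyte genes summed to 1056 to 1245 CPM in KO aortas and 826.0 to 1123 CPM in WT AngII aortas, against 599.5 to 731.3 CPM in WT sham aortas, and 12 of 12 rose in both AngII groups. Immunoglobulin constant genes summed to 1.879 to 77.05 CPM in KO aortas and 0.7718 to 28.92 CPM in WT AngII aortas, against 0.4535 to 2.469 CPM in WT sham aortas, with 0 of 3 tested called (edgeR, 2 in KO and 1 in WT AngII at an unadjusted p below 0.05). KO replicate 1 and WT AngII replicate 1 held the highest of these sums. Dendritic cell genes summed to 50.27 to 59.53 CPM in KO aortas and 35.43 to 67.13 CPM in WT AngII aortas, against 27.36 to 36.58 CPM in WT sham aortas, and 7 of 10 rose and 1 fell in both AngII groups. Glycam1 had 0 reads in every aortic library. The part of these cells in the result was not tested.

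The tissues were compared in 1 fit of all 26 libraries. It takes the libraries as independent, because no label says whether a number marks the same mouse in both tissues. In WT sham mice, 0 of 32 genes were lower in mesenteric arteries than in aorta, where 17.7% of all genes were, and 8 were higher, where 20.7% of all genes were: Ms4a1, Jchain, Zap70, Ccl5, Gzma, Ccr7, Cxcl13 and Acap1. Jchain had the largest log2 difference, 6.10 ± 1.77 (SE, edgeR adjusted p = 0.0091), and Cxcl13 the smallest adjusted p, at 3.49 ± 0.64 (SE, adjusted p = 0.000115). When 1 library at a time was left out, the count was 4 of 33 at the lowest, without aortic WT sham replicate 2 or 3 or mesenteric WT sham replicate 3, where Ms4a1, Ccl5, Gzma and Ccr7 were lost and 17.7 to 18.6% of all genes were higher. Without KO replicate 3 and WT AngII replicate 1 of the mesenteric arteries 18 of 32 were higher, where 21.2% of all genes were.

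The effect of the deletion differed between the tissues for 0 of 32 genes. The difference of the log2 fold changes (mesenteric minus aortic KO over WT AngII) was above 0 for 32 of 32, median 1.53, with edgeR adjusted p of 0.953 to 0.97, where 0.0% of all genes were called; 1 was at an unadjusted p below 0.05. It was 0.17 without mesenteric KO replicate 3 and 3.25 without mesenteric WT AngII replicate 1. Without the 4 poorly aligned mesenteric libraries 3 genes were called higher, Cd4, Cd22 and Cd37, where 0.0575% of all genes were. The AngII effect (mesenteric minus aortic WT AngII over WT sham) differed for 0 of 32 genes as well (median 0.28, 0 at an unadjusted p below 0.05), where 0.68% of all genes were called higher and 1.66% lower, and the median was -1.16 without mesenteric WT AngII replicate 1.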

How the data were processed

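The authors deposited 26 tables of read counts per Ensembl gene, 1 per library, each with raw unnormalised counts and 5 HTSeq summary lines. Per the labels' protocols, poly(A) RNA was made into directional libraries (NEBNext Ultra II) and read as paired ends. Per the submitters' processing notes, cutadapt, HISAT2, HTSeq and the mouse build GRCm39 were used. Versions, the strand setting of the counting and the annotation release are not given in the sources used here. Where the annotation places genes on opposite strands of the same bases (Cd22, Pax5, Cd3e, Cxcr5, Cd37 and Coro1a, at most 9.5% of exon bases in GENCODE M21 of GRCm38), reads could therefore be shared.

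Normalised CPM used TMM factors over all 26 libraries; the summary lines stayed out. Each tissue's 13 libraries were fitted with their 3 groups by edgeR 4.0.16 in R 4.3.3 (TMM, filterByExpr, robust quasi-likelihood F test), and tissues were compared in a fit of all 26. Adjusted p is Benjamini-Hochberg over all genes tested, and a gene is called below 0.05. Counts at an unadjusted p below 0.05 are given without the share over all genes, so they describe the members and are not calls. Values after ± are SE and intervals are 95%. The prior count was 2 for log2 CPM, and the edgeR fits kept their own default. The script was tested on simulated data. DESeq2 1.42.0 and limma 3.58.1 (voom with quality weights) were alternatives, beside other scalings and filters, a replicate block and left-out libraries. Low counts limit precision: 18 of the 33 genes had 10 or more reads in all mesenteric libraries and 6 in all aortic libraries. No library was a copy of another of its group (chi-square over genes divided by its degrees of freedom 9.086 or more for each pair). Labels number the samples within a group, and p-values rest on the spread between these samples. Each sample of a tissue was taken as a separate mouse.

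All 33 genes are named. Of each companion list (19 lists, from general knowledge) the 2 with the highest mean CPM may be named, and those called where 4 or fewer were; Glycam1, Madcam1, Igha, Ighd, Ccl21a, Clec9a and Siglech were chosen with their values already known. The members, lists and left-out libraries were chosen with earlier results of these data known.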

Additional observations from a re-analysis of the deposited data

Results flagged for a closer look

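In 198 sets of 1 gene in 1 group, the highest or lowest library stood apart from the rest of its group by Dixon's criterion on log2 CPM in 15, where chance alone gives about 1 in 20. In mesenteric WT AngII, replicate 1 was far above the other 3 for 7 genes: Cd22 (30.74 CPM), Ms4a1 (21.71), Pax5 (11.92), Cd4 (32.45), Ccl5 (7.324), Nkg7 (3.475) and Cxcr5 (5.56). KO replicate 3, though the highest for 32 genes, was not among the 15. On CPM in place of log2 CPM, a scale added after the data were seen, it stood apart from its group for 27 of the 33 genes. That scale was applied to the mesenteric KO group alone, so the 27 cannot be set against the 1 in 20. In mesenteric WT sham, replicate 1 was high for Cxcr5 (0.7542 CPM) and replicate 2 low for Coro1a (8.287 CPM).

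In the aorta, KO replicate 1 was high for Ighm (38.23 CPM), and KO replicate 3 was low for Cd3g (0.2349), Ccr7 (0.03356) and Cxcr5 (0.0). In aortic WT AngII, replicate 1 was high for Cd8b1 (0.5987 CPM) and replicate 4 low for Ccr7 (0.1103).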

How the results depend on the processing

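No single gene of the 33 reversed sign under an alternative run where it was called in either fit. The medians of mesenteric WT AngII over WT sham and of the tissue difference of the AngII effect did change sign. Without 1 library at a time, the median log2 fold change was 0.19 to 3.40 for mesenteric KO over WT AngII, -0.27 to 1.63 for WT AngII over WT sham, 0.17 to 3.25 for the tissue difference of the KO effect and -1.16 to 0.68 for that of the AngII effect; the number of genes higher in mesenteric than aortic WT sham was 4 to 12. DESeq2 called 25 genes higher in mesenteric KO against WT sham (5.13% of all genes). The median tissue difference of the AngII effect, 0.28, was -0.79 with limma voom, and the median of mesenteric WT AngII over WT sham was 0.17. Without the mesenteric libraries KO 3 and WT AngII 1, the median of mesenteric WT AngII over WT sham was -0.27, that of the tissue difference of the AngII effect -1.14 with 1 gene called lower (1.71% of all genes), and 18 genes (21.2% of all) were higher in mesenteric than aortic WT sham. Without the 4 mesenteric libraries with over 10% of records not aligned, 15 genes were called higher in KO over WT AngII (0.313% of all genes) and 19 in KO over WT sham (1.51%), the median of WT AngII over WT sham was -0.26, the tissue difference of the KO effect called 3 higher (0.0575%) and that of the AngII effect 3 lower (2.29%) with a median of -1.14, and 18 genes (21.7% of all) were higher in mesenteric than aortic WT sham. The fit without those 4 libraries kept KO replicates 1 and 5, both high, and dropped WT AngII replicate 1, the highest of its group. The stricter filter left 9 genes in the aorta, with a median of 1.61 for KO over WT sham, and with no filter 5 genes were higher in mesenteric than aortic WT sham. Apart from the construction of these fits, the cause was not tested.

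Between mesenteric KO and WT AngII, which are different mice, the correlation of same-numbered deviations was -0.252 to 0.269. Between aorta and mesenteric arteries it was -0.118 to 0.041 in KO, 0.038 to 0.122 in WT AngII and -0.049 to 0.133 in WT sham. These values do not settle whether a number marks the same mouse in both tissues. With the replicate number as a block the median log2 fold change was 1.38 for mesenteric KO over WT AngII, 0.82 for WT AngII over WT sham and 2.22 for KO over WT sham, with 0 genes called in each.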
